A study of Mus musculus with 8 samples.

Results

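The 41 genes described here encode the glucose transporters, the enzymes of glycolysis, the enzymes and carriers that handle pyruvate and lactate, and the enzymes of the pentose phosphate pathway in mouse cells. They were chosen by gene symbol from the reactions they serve, and all 41 were present among the 24354 genes of the deposited table. Transcripts were measured by poly-A RNA-seq as FPKM, sequenced fragments scaled to transcript length and library depth, which allows genes to be compared within a library. There were 4 groups of 2 libraries. Embryonic stem cells (ESCs) were of the wild-type E14 line, kept in DMEM (low glucose, per the study's methods) with fetal bovine serum and LIF on inactivated C3H embryonic fibroblasts. Neural stem cells (NSCs) carried the OG2 (Oct4-GFP) and ROSA26 transgenes, both heterozygous, and grew without feeders in DMEM/F12 with EGF and FGF2. Extended pluripotent stem cells (EPSCs), also wild type, came from C57BL/6 eight-cell embryos and were sequenced at passage 15 of 1 line, in N2B27 medium with LCDM (human LIF, CHIR99021, dimethindene maleate and minocycline) on C3H fibroblasts. Hybrid cells were near-tetraploid products of polyethylene glycol fusion between EPSCs and these NSCs, picked as Oct4-GFP+ cells, and were sequenced at passage 10 of 1 line in the same LCDM medium on fibroblasts. Each group is therefore 1 line. Medium, feeder, strain and cell type cannot be told apart in the comparisons with ESCs or NSCs, whereas EPSCs and hybrid cells shared medium and feeder.

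Glycolysis splits glucose into pyruvate in the cytoplasm and yields ATP without oxygen. Pyruvate is then reduced to lactate and exported, or enters mitochondria through the pyruvate dehydrogenase complex, which pyruvate dehydrogenase kinases switch off. The pentose phosphate pathway branches from glucose 6-phosphate, with an oxidative arm that makes NADPH and a reversible arm that makes ribose phosphate. Several steps have isozymes encoded by separate genes that differ in tissue range and kinetics, and pluripotent cells are known for a high glycolytic rate.

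Library totals differed between the cell groups. FPKM summed to 415240 and 415412 in the NSC libraries and to between 600674 and 653796 in the other 6. Depth, estimated from the smallest steps between values, was between 22000000 and 32560000 fragments. Of 6 pluripotency markers, the summed level was 4118 to 4907 FPKM in ESCs, EPSCs and hybrid cells and 2.35 and 2.93 in NSCs. The sum of 7 NSC markers was 3692 and 3644 FPKM in NSCs and 10.6 to 19.2 elsewhere, and the defining marker Fabp7 was at 0.0761 and 0.238 FPKM in hybrid cells. By these sums NSCs stood apart from the other groups. Fibroblast markers differed between the groups on feeders: 10 genes summed to 11.4 and 12.6 FPKM in ESCs, to 84.6 and 81.6 in EPSCs, and to 321 and 240 in hybrid cells. All 9 of these genes that were tested were higher in hybrid cells than in EPSCs, and their part in the results below was not tested. Postn, which is in this list, is named by the study as an EPSC-specific gene. In bulk RNA, fewer cells of a type and less RNA per cell cannot be told apart.

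The 41 genes together made up 2.64% and 2.61% of all FPKM in ESCs, 1.67% and 1.54% in NSCs, 1.78% and 1.58% in EPSCs and 1.48% and 1.24% in hybrid cells. ESCs were thus above all other libraries in this share, and hybrid cells were the lowest. The highest member was Gapdh, the enzyme that oxidises glyceraldehyde 3-phosphate, at up to 4539 FPKM in an ESC library. The lowest was Pgam2, the muscle form of phosphoglycerate mutase, listed at 0 in both NSC libraries. Libraries of the same group differed at the median member by 1.03-fold in ESCs, 1.08-fold in NSCs, 1.14-fold in EPSCs and 1.15-fold in hybrid cells.

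**Figure D1:**
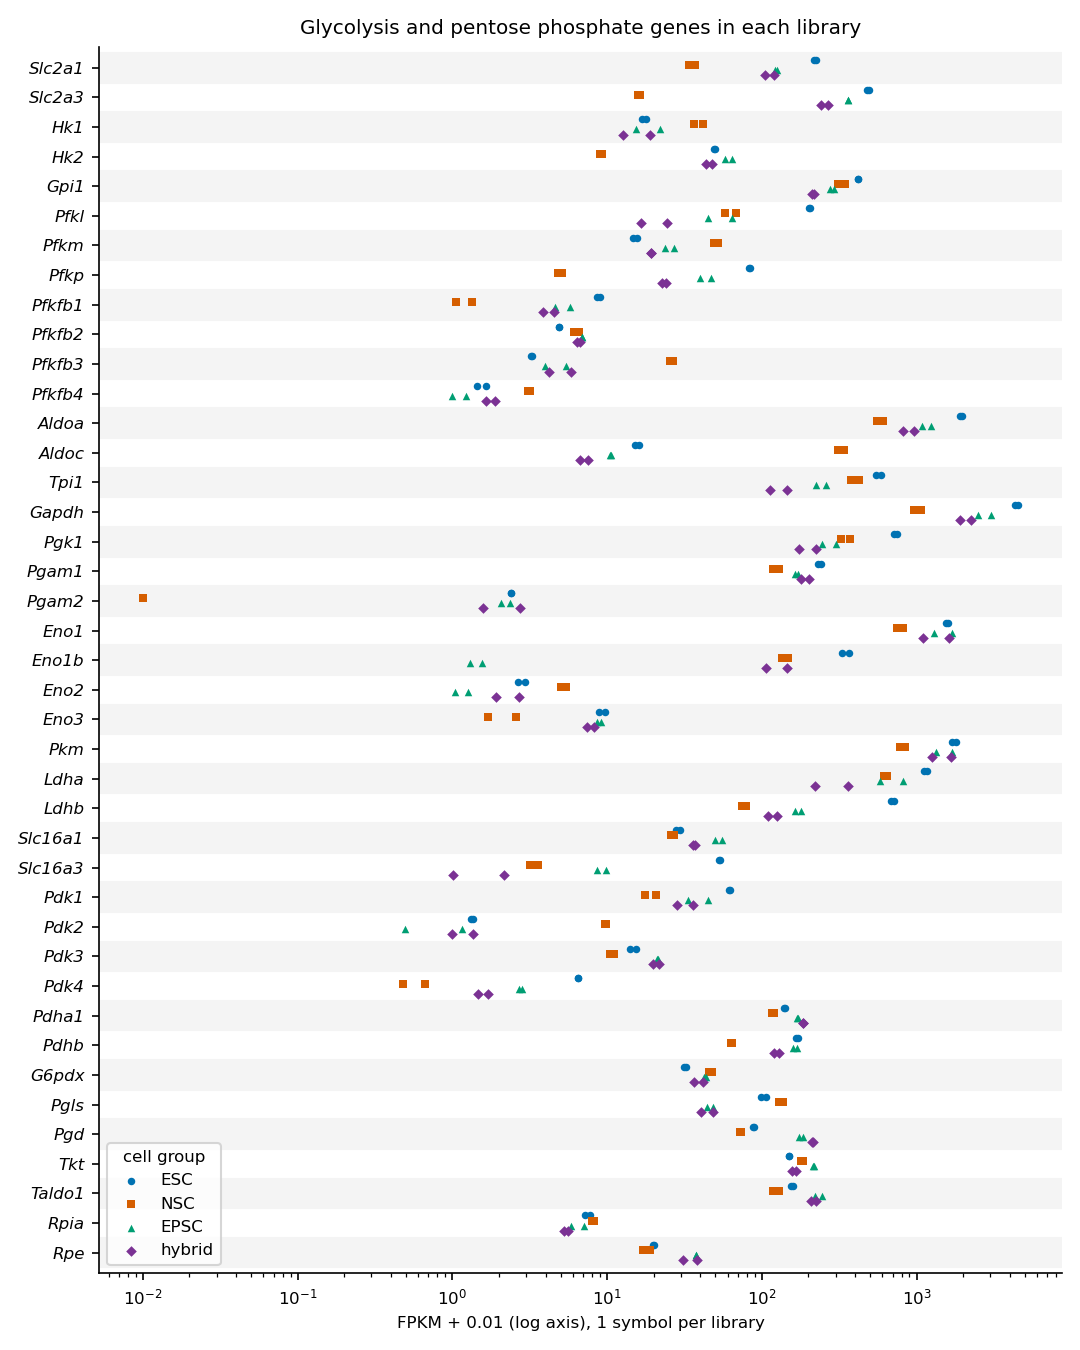
FPKM plus 0.01 of each of the 41 genes on a log axis, with 1 symbol per library and 2 libraries for each of the 4 cell groups, genes ordered along the pathway. ESC symbols lie at the right for most glycolytic genes (4539 and 4332 FPKM for Gapdh), and the NSC symbols of Pgam2 are at the left edge because it was listed at 0.

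Hybrid cells had lower levels than EPSCs for more members than they had higher. On the log2(FPKM + 1) scale, limma called 4 of 41 members higher and 18 lower in hybrid cells at an adjusted p below 0.05, and 19 were not called. Over the 13239 genes tested, all 41 members among them, 44.4% were called in this comparison, 22.5% higher and 21.9% lower. The median member differed by −0.24 on the log2 scale and the median gene by 0.00. By the study's own rule, which asks for a ratio of group means above 3 and an average level above 3 FPKM, taken here as the larger of both group means, 1 member was higher (Eno1b) and 1 was lower (Slc16a3), against 1.04% and 0.551% of genes. With both limits at 2, which the study's text also names, 1 was higher and 3 were lower.

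EPSCs also stood below ESCs for many members, with 11 called higher, 21 lower and 9 not called. The background was 61% of genes called, 33.7% higher and 27.3% lower. The median member was at −0.39 on the log2 scale and the median gene at 0.04. No member was higher by the study's rule and 4 were lower (Pfkl, Eno1b, Ldhb and Slc16a3), against 2.36% of genes in each direction.

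Against NSCs, most of the genes tested were called, so counts say little about the members there. EPSCs had 24 members higher and 13 lower, with 86.2% of all genes called, 45.2% higher and 41% lower. Hybrid cells had 22 higher and 17 lower, with 86.5% of all genes called, 44.5% higher and 42% lower. This balance depended on the scaling of the NSC libraries, which have lower FPKM totals. With every library scaled to the same sum, EPSCs had 19 members higher and 18 lower, and hybrid cells 14 and 19. Quantile normalization gave 18 higher and 17 lower in EPSCs, with 17 and 20 in hybrid cells. The common sum shifted the median gene to −0.48 for EPSCs and −0.50 for hybrid cells. The study's rule took 6 members higher and 5 lower in both comparisons, against 12.3% and 16.5% of genes for EPSCs and 12.7% and 16.3% for hybrid cells. After scaling to the same sum the rule took 5 higher and 9 lower for EPSCs and 4 higher and 11 lower for hybrid cells, and Slc2a1, Pfkfb1 and Eno3 no longer passed it in either comparison. Without the first NSC library 3 members were lower by the rule in hybrid cells. Ratios and isozyme shares within a library do not depend on the common sum, though they can change with quantile normalization, and they are given at each step below. These comparisons share libraries and are not independent of each other.

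**Figure D2:**
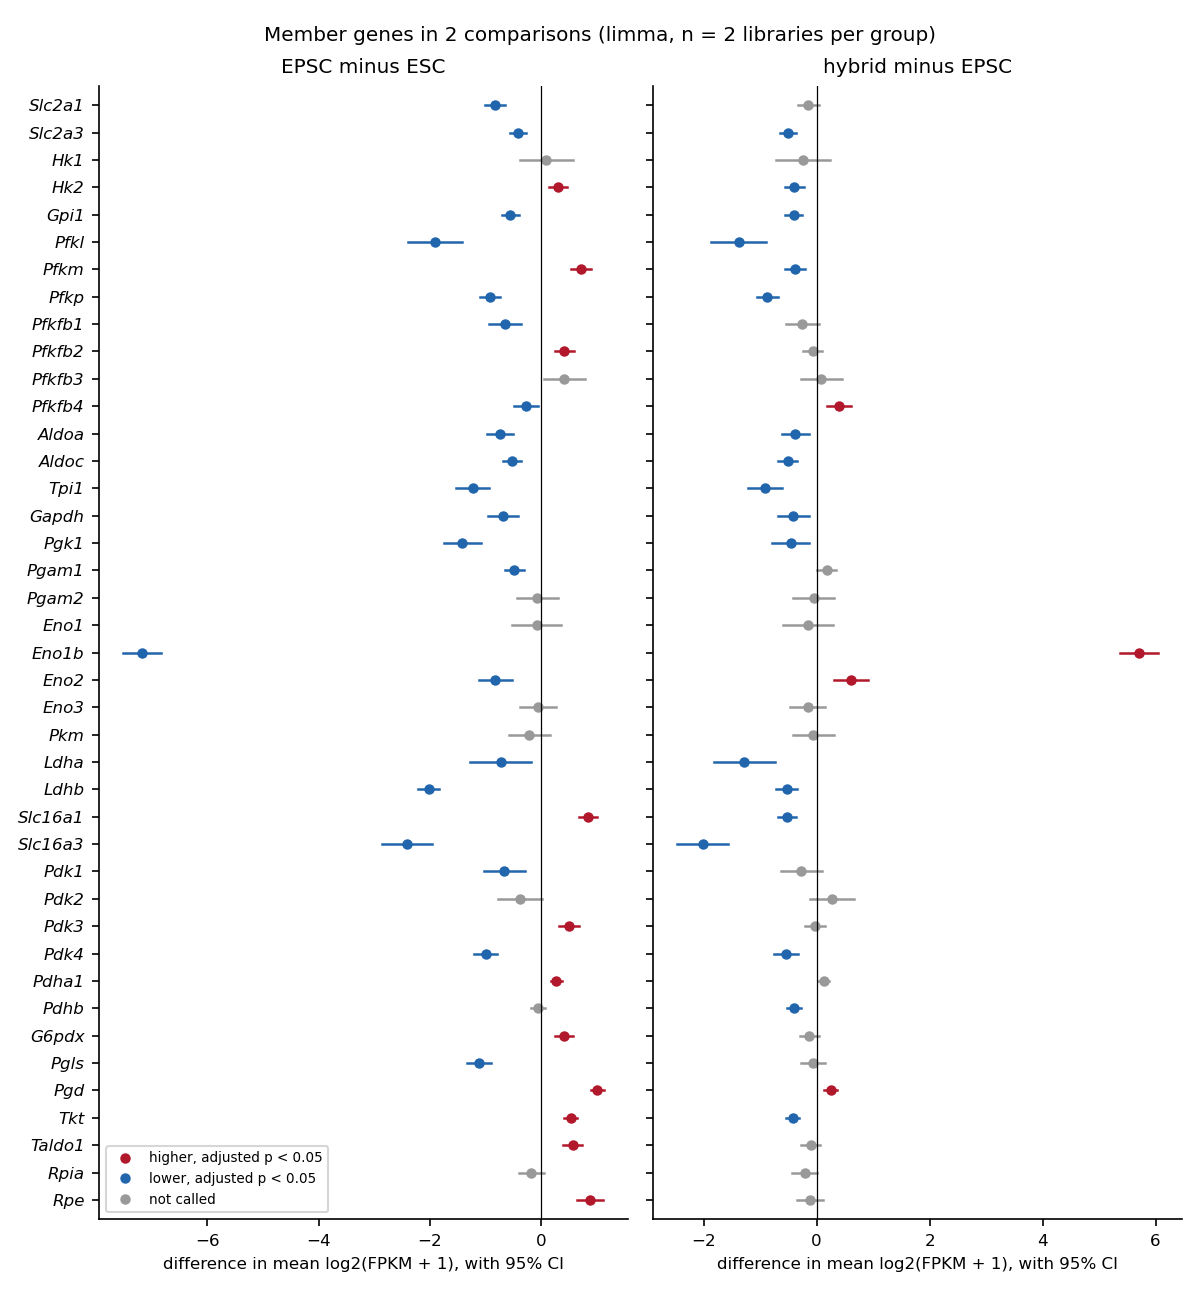
Difference in mean log2(FPKM + 1) between EPSCs and ESCs (left) and between hybrid cells and EPSCs (right) for each member, with the 95% confidence interval from limma and 2 libraries per group. Red and blue mark members called higher and lower (11 and 21 on the left, 4 and 18 on the right), and Eno1b lies far from the rest in opposite directions.

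The glucose transporters were high in the pluripotent groups and low in NSCs. Slc2a1 encodes GLUT1, the transporter found in most cells, and stood at 223 and 219 FPKM in ESCs, 126 and 122 in EPSCs, 104 and 120 in hybrid cells and 36.9 and 33.9 in NSCs. Slc2a3 encodes GLUT3, a high-affinity transporter best known from neurons and early embryos, and stood at 490 and 475 FPKM in ESCs, 360 and 361 in EPSCs, 241 and 268 in hybrid cells and 16.3 and 15.9 in NSCs. The groups did not overlap for either gene. Slc2a3 was lower in hybrid cells than in EPSCs by 0.50 (SE 0.06, adjusted p = 0.000929), whereas Slc2a1 missed the threshold (adjusted p = 0.164), except without the second hybrid library (0.0308). Both passed the study's rule against NSCs, though Slc2a1 did not after scaling to a common sum. Without the second hybrid library the ratio of Slc2a1 in hybrid cells to NSCs was 2.95, also below the rule's limit of 3. Slc2a3 was 22.4-fold higher in EPSCs (log2 difference 4.40, SE 0.06, adjusted p = 1.88e-09) and 15.8-fold higher in hybrid cells (3.90, SE 0.06, adjusted p = 2.74e-09). Slc2a1 was 3.50-fold and 3.17-fold higher (log2 differences 1.78 and 1.64, SE 0.08 for each, adjusted p = 2.67e-07 and 4.15e-07). After scaling to the same sum its log2 differences were 1.18 and 1.03. GLUT3 transcripts made up 74.4% ± 0.52 (SD, n = 2) of the pair in EPSCs, with hybrid cells at 69.4% ± 0.46 and ESCs at 68.6% ± 0.18. In NSCs the order was turned, with Slc2a1 at 68.7% ± 0.95.

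Hexokinase, which traps glucose as glucose 6-phosphate, showed the same change of leading isozyme. Hk1, the constitutive form, stood at 41.5 and 36.5 FPKM in NSCs and at 12.7 to 22.1 in the other 6 libraries. Hk2, the regulated form typical of muscle and of proliferating cells, stood at 9.27 and 8.92 FPKM in NSCs, 49.4 and 48.8 in ESCs, 57.7 and 63.8 in EPSCs and 48.0 and 43.8 in hybrid cells. There were thus 0.223 and 0.245 Hk2 transcripts per Hk1 transcript in NSCs and 2.33 to 3.77 in the other libraries. Hk2 was 6.67-fold higher in EPSCs than in NSCs (log2 difference 2.61, SE 0.07, adjusted p = 2.76e-08) and 5.04-fold higher in hybrid cells (2.21, SE 0.07, adjusted p = 6.21e-08). Hk1 fell by 1.03 in EPSCs and by 1.28 in hybrid cells. Between hybrid cells and EPSCs, Hk2 differed by −0.40 (SE 0.07, adjusted p = 0.00398), and the Hk1 libraries overlapped. Hk2 was higher in EPSCs than in ESCs by 0.30 (adjusted p = 0.00804), a call that was lost without the second ESC library (adjusted p = 0.0531).

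Gpi1, which turns glucose 6-phosphate into fructose 6-phosphate, had its lowest level in hybrid cells. It stood at 420 and 416 FPKM in ESCs, 346 and 311 in NSCs, 293 and 275 in EPSCs and 217 and 212 in hybrid cells. All 4 groups were separate. Hybrid cells were below EPSCs by 0.40 (SE 0.06, adjusted p = 0.00263) and below NSCs by 0.61 (SE 0.06, adjusted p = 4.47e-05).

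Phosphofructokinase, which commits fructose 6-phosphate to glycolysis, is a tetramer of liver (Pfkl), muscle (Pfkm) and platelet (Pfkp) subunits, and its mixture differed in every group. Pfkl stood at 205 and 202 FPKM in ESCs, 68.3 and 57.6 in NSCs, 64.2 and 44.8 in EPSCs and 24.2 and 16.5 in hybrid cells. Only EPSCs and NSCs overlapped. Pfkl was 3.73-fold lower in EPSCs than in ESCs (log2 difference −1.90, SE 0.21, adjusted p = 0.00022) and 2.68-fold lower in hybrid cells than in EPSCs (−1.38, SE 0.21, adjusted p = 0.00212). It was also 3.09-fold lower in hybrid cells than in NSCs (−1.60, SE 0.21, adjusted p = 0.000158), which passed the study's rule. That ratio fell below the rule's limit of 3 without the first NSC library (2.83) and without the second hybrid library (2.60). Pfkp stood at 83.2 and 82.4 FPKM in ESCs, 46.6 and 40.1 in EPSCs, 22.5 and 23.9 in hybrid cells and 5.08 and 4.81 in NSCs. It was 8.77-fold higher in EPSCs than in NSCs (2.90, SE 0.08, adjusted p = 2.98e-08) and 4.69-fold higher in hybrid cells (2.03, SE 0.08, adjusted p = 1.77e-07). Pfkm was instead highest in NSCs and lowest in ESCs, with 52.2 and 48.9 FPKM in NSCs, 23.8 and 27.2 in EPSCs, 19.3 and 19.2 in hybrid cells and 14.7 and 15.6 in ESCs. Pfkp and Pfkm were both lower in hybrid cells than in EPSCs, by 0.87 and 0.39.

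The summed phosphofructokinase level was 303 and 300 FPKM in ESCs, 135 and 112 in EPSCs, 126 and 111 in NSCs and 66.0 and 59.6 in hybrid cells, the lowest of the 8 libraries. Of that sum, Pfkl made up 67.5% ± 0.25 in ESCs, 53.1% ± 1.85 in NSCs, 43.8% ± 5.46 in EPSCs and only 32.2% ± 6.35 in hybrid cells. Pfkm made up 5.03% ± 0.25 in ESCs, 42.8% ± 1.65 in NSCs, 30.7% ± 2.10 in hybrid cells and 21.0% ± 4.66 in EPSCs. By the mean, Pfkp led in hybrid cells at 37.1% ± 4.25, where Pfkl led in EPSCs. This change of leader rested on the second hybrid library, where Pfkp was at 40.1%, since Pfkl was at 36.7% and Pfkp at 34.1% in the first, so the leader in hybrid cells was not settled by 2 libraries.

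The 4 PFKFB genes encode bifunctional enzymes that make and break fructose 2,6-bisphosphate, the strongest activator of phosphofructokinase. Pfkfb3, the form with the highest kinase activity, stood at 25.5 and 26.5 FPKM in NSCs, 3.22 and 3.25 in ESCs, 5.42 and 3.97 in EPSCs and 5.85 and 4.23 in hybrid cells. It was 5.54-fold lower in EPSCs than in NSCs (log2 difference −2.26, SE 0.16, adjusted p = 3.85e-06) and 5.16-fold lower in hybrid cells (−2.17, SE 0.16, adjusted p = 4.74e-06). Pfkfb1, the liver and muscle form, stood at 8.92 and 8.55 FPKM in ESCs, 4.61 and 5.79 in EPSCs, 3.86 and 4.53 in hybrid cells and 1.05 and 1.34 in NSCs, and was 4.37-fold and 3.52-fold higher in EPSCs and hybrid cells than in NSCs (SE 0.12 on the log2 scale for each, adjusted p = 1.08e-05 and 3.22e-05). Pfkfb2, the heart form, varied little, between 4.90 and 6.87 FPKM in all 8 libraries. Pfkfb4 lay between 0.990 and 3.17 FPKM. Its call as higher in hybrid cells than in EPSCs (adjusted p = 0.0114) was lost without the second EPSC library (adjusted p = 0.0517) and when these groups were fitted alone (0.0786). Its call as lower in EPSCs than in ESCs (adjusted p = 0.0348) was lost without either ESC library, either NSC library or the second EPSC library, and with no filter, quantile normalization or a fit of these groups alone (adjusted p up to 0.179). Within the step, Pfkfb3 led in NSCs (71.0% ± 0.56), Pfkfb1 in ESCs (47.4% ± 0.44) and Pfkfb2 in EPSCs (38.5% ± 0.75) and hybrid cells (37.2% ± 1.71). Of the 100-base runs of the Pfkfb2 transcript, 23.9% also occur in another annotated gene, so its level and its lead are uncertain.

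Aldolase, which splits fructose 1,6-bisphosphate, had the sharpest mark of the neural cells. Aldoc, the brain form, stood at 340 and 313 FPKM in NSCs, 16.0 and 15.2 in ESCs, 10.6 and 10.4 in EPSCs and 7.49 and 6.70 in hybrid cells. It was 31.0-fold lower in EPSCs (log2 difference −4.83, SE 0.07, adjusted p = 2.41e-09) and 46.0-fold lower in hybrid cells (−5.34, SE 0.07, adjusted p = 1.76e-09) than in NSCs. Hybrid cells were also below EPSCs, by 0.51 (adjusted p = 0.00167). Aldoc formed 36.0% ± 0.21 of the aldolase pair in NSCs and 0.77% to 0.95% in the other 6 libraries, so Aldoa, the ubiquitous form, led everywhere. Aldoa stood at 1965 and 1904 FPKM in ESCs, 1239 and 1086 in EPSCs, 967 and 822 in hybrid cells and 608 and 553 in NSCs. It was lower in EPSCs than in ESCs by 0.74 (adjusted p = 0.000628) and lower in hybrid cells than in EPSCs by 0.38 (adjusted p = 0.0200), the latter lost without the first EPSC library (adjusted p = 0.0930) or the second hybrid library (0.0894) and in a fit of these groups alone. Its higher levels than in NSCs turned to −0.02 (EPSCs) and −0.42 (hybrid cells) with quantile normalization and to −0.0005 (hybrid cells) with scaling to the same sum.

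Tpi1, which interconverts the triose phosphates, fell through the pluripotent groups. It stood at 593 and 544 FPKM in ESCs, 426 and 379 in NSCs, 259 and 224 in EPSCs and 144 and 113 in hybrid cells, with all 4 groups apart. Tpi1 was 2.35-fold lower in EPSCs than in ESCs (log2 difference −1.23, SE 0.13, adjusted p = 0.00017) and 1.88-fold lower in hybrid cells than in EPSCs (−0.91, SE 0.13, adjusted p = 0.00161). It was 3.12-fold lower in hybrid cells than in NSCs (−1.64, SE 0.13, adjusted p = 7.25e-06), past the study's rule. Without the first NSC library this ratio was 2.94, and without the second hybrid library 2.79, both below the rule's limit of 3. Of the 9 genes from hexokinase to Tpi1, the PFKFB genes left out, 8 were lower in hybrid cells than in EPSCs and none was higher by limma, where 21.9% of all genes were lower and 22.5% higher. Of the 4 PFKFB genes, 1 was higher and 3 were not called.

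In the lower part of the pathway, from Gapdh to pyruvate kinase, 2 of 9 genes were higher in hybrid cells than in EPSCs, 2 lower and 5 not called, a share called like the 44.4% of all genes. Gapdh stood at 4539 and 4332 FPKM in ESCs, 3012 and 2511 in EPSCs, 2245 and 1900 in hybrid cells and 1072 and 959 in NSCs. Pgk1, the first ATP-forming enzyme, stood at 744 and 714 FPKM in ESCs, 370 and 326 in NSCs, 300 and 246 in EPSCs and 225 and 173 in hybrid cells. Both genes were lower in EPSCs than in ESCs, by 0.69 (adjusted p = 0.00183) and 1.42 (SE 0.14, adjusted p = 0.000142). Their differences between hybrid cells and EPSCs, −0.41 (adjusted p = 0.0261) and −0.46 (adjusted p = 0.0328), were each lost when any library except the second EPSC or the first hybrid library was left out, with no filter and in a fit of these groups alone, with adjusted p up to 0.122 and 0.159. Gapdh was higher in hybrid cells than in NSCs by 1.03, but lower by 0.39 with quantile normalization. Of the 100-base runs of their transcripts, 78.1% for Gapdh and 67.0% for Pgk1 also occur in other annotated genes, 84 of them for Gapdh, so reads of these genes could have been split between copies and their levels are uncertain.

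Phosphoglycerate mutase was almost wholly Pgam1, the form of most tissues, which made up between 98.7% and 100% of the pair. Pgam1 stood at 240 and 231 FPKM in ESCs, 201 and 180 in hybrid cells, 172 and 164 in EPSCs and 129 and 119 in NSCs. It shares 39.7% of its 100-base runs with other genes. Hybrid cells and EPSCs did not overlap but the difference missed the threshold (adjusted p = 0.0783). It passed with quantile normalization (0.0443), and also without the second hybrid library (0.0337). The higher levels than in NSCs turned to −0.18 for EPSCs and −0.0021 for hybrid cells after scaling to the same sum and, for EPSCs, to −0.12 with quantile normalization. Pgam2 stood at 1.57 to 2.71 FPKM in the 6 pluripotent libraries and was listed at 0 in both NSC libraries.

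Enolase, which makes phosphoenolpyruvate, held the largest single difference among the members. Eno1b, an annotated Eno1-like copy on chromosome 18, stood at 365 and 332 FPKM in ESCs, 148 and 134 in NSCs, 146 and 106 in hybrid cells and 1.54 and 1.29 in EPSCs. EPSCs were thus far below all other libraries, and hybrid cells and NSCs overlapped. The difference from EPSCs was 246-fold for ESCs (log2 difference −7.18 from ESC to EPSC, SE 0.14, adjusted p = 2.68e-07), 99.9-fold for NSCs (−5.88, SE 0.14, adjusted p = 1.75e-08) and 89.3-fold for hybrid cells (5.70, SE 0.14, adjusted p = 6.34e-06). Eno1, the ubiquitous form, stood at 1588 and 1552 FPKM in ESCs, 1694 and 1293 in EPSCs, 1620 and 1104 in hybrid cells and 820 and 751 in NSCs. Its higher level than in NSCs turned to −0.40 for EPSCs and −0.61 for hybrid cells with quantile normalization. There were 0.230 and 0.214 Eno1b transcripts per Eno1 transcript in ESCs, 0.181 and 0.179 in NSCs, 0.0904 and 0.0962 in hybrid cells and 0.000911 and 0.000995 in EPSCs. Eno1b shares 73.4% of its 100-base runs with other genes, 61.8% with Eno1, so the split between these genes depends on how shared reads were assigned and the level of each is uncertain. The lines also came from different mouse strains, and strain and cell type cannot be told apart here. Added together, Eno1 and Eno1b kept the lead in every group.

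The tissue-specific enolases were minor. Eno2, the neuronal form, stood at 5.43 and 5.01 FPKM in NSCs, 2.94 and 2.65 in ESCs, 2.67 and 1.90 in hybrid cells and 1.25 and 1.03 in EPSCs. It was 4.56-fold lower in EPSCs than in NSCs (log2 difference −1.54, SE 0.13, adjusted p = 1.04e-05) and higher in hybrid cells than in EPSCs by 0.61 (SE 0.13, adjusted p = 0.00762). Eno3, the muscle form, stood at 2.56 and 1.69 FPKM in NSCs and 7.38 to 9.62 in the other libraries. It was 4.16-fold higher in EPSCs and 3.68-fold higher in hybrid cells than in NSCs (1.67 and 1.51, SE 0.13 for each, adjusted p = 9.56e-06 and 1.74e-05). Pkm, which encodes the pyruvate kinase of most tissues, stood at 1805 and 1693 FPKM in ESCs, 1702 and 1329 in EPSCs, 1664 and 1253 in hybrid cells and 836 and 777 in NSCs. EPSCs overlapped with ESCs and with hybrid cells at Pkm, whereas both ESC libraries were above both hybrid libraries. The higher level than in NSCs turned to −0.47 for EPSCs and −0.57 for hybrid cells with quantile normalization.

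At the lactate end of the pathway all 4 members were lower in hybrid cells than in EPSCs, where 21.9% of all genes were lower. Among further lactate genes that were tested, Ldhc and Emb were lower and Bsg and Ldhd were not called. Ldha encodes the lactate dehydrogenase subunit that favours lactate formation and stood at 1175 and 1118 FPKM in ESCs, 817 and 582 in EPSCs, 644 and 616 in NSCs and 363 and 222 in hybrid cells. Both hybrid libraries were below all others, and EPSCs and NSCs overlapped. Ldha was 2.39-fold lower in hybrid cells than in EPSCs (log2 difference −1.28, SE 0.23, adjusted p = 0.0044) and 2.15-fold lower than in NSCs (−1.15, SE 0.23, adjusted p = 0.00204). Its difference between EPSCs and ESCs (−0.73, adjusted p = 0.0273) was lost when any ESC or NSC library or the second EPSC library was left out (adjusted p 0.0608 to 0.148) and with no filter. Ldhb, the subunit that favours lactate use, stood at 712 and 682 FPKM in ESCs, 178 and 163 in EPSCs, 110 and 126 in hybrid cells and 78.6 and 74.3 in NSCs. It was 4.08-fold lower in EPSCs than in ESCs (−2.03, SE 0.08, adjusted p = 3.47e-06), past the study's rule, and lower in hybrid cells than in EPSCs by 0.53 (SE 0.08, adjusted p = 0.00214). Against NSCs, the hybrid level of Ldhb was higher by 0.61, which scaling to the same sum reduced to −0.0004.

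Ldhb made up 37.8% ± 0.09 of the lactate dehydrogenase transcripts in ESCs, 29.7% ± 9.16 in hybrid cells, 19.9% ± 2.78 in EPSCs and 10.8% ± 0.08 in NSCs. The hybrid libraries, at 23.2% and 36.2%, differed from each other by more than the hybrid and EPSC means did. The exact permutation test on shares cannot go below a two-sided p of 0.33 with 2 libraries against 2.

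Lactate carriers changed their order between ESCs and all other groups. Slc16a3, which encodes MCT4, the exporter of strongly glycolytic cells, stood at 53.4 and 52.7 FPKM in ESCs, 9.80 and 8.54 in EPSCs, 3.56 and 3.17 in NSCs and 2.14 and 1.00 in hybrid cells. All 4 groups were separate. Slc16a3 was 5.79-fold lower in EPSCs than in ESCs (log2 difference −2.41, SE 0.19, adjusted p = 5.46e-05) and 5.84-fold lower in hybrid cells than in EPSCs (−2.02, SE 0.19, adjusted p = 0.000393), and both passed the study's rule. The latter ratio was 9.14 without the first hybrid library and 4.29 without the second. Hybrid cells were also below NSCs, by 0.80 (adjusted p = 0.00494), which missed the threshold with quantile normalization (adjusted p = 0.0556). NSCs were 2.14-fold above hybrid cells, which became 3.36 without the first hybrid library and 1.58 without the second. Slc16a1, which encodes the widespread carrier MCT1, stood at 49.5 and 55.3 FPKM in EPSCs, 35.7 and 36.9 in hybrid cells, 29.7 and 28.1 in ESCs and 27.0 and 25.8 in NSCs. It was higher in EPSCs than in ESCs by 0.84 (SE 0.07, adjusted p = 6.29e-05) and lower in hybrid cells than in EPSCs by 0.52 (SE 0.07, adjusted p = 0.00134). Its level in hybrid cells, higher than in NSCs by 0.44, turned to −0.16 after scaling to the same sum. Slc16a3 thus led in ESCs with 64.8% ± 0.69 of the pair, and Slc16a1 led with 95.8% ± 2.12 in hybrid cells, 88.7% ± 0.51 in NSCs and 85.1% ± 2.23 in EPSCs.

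**Figure D3:**
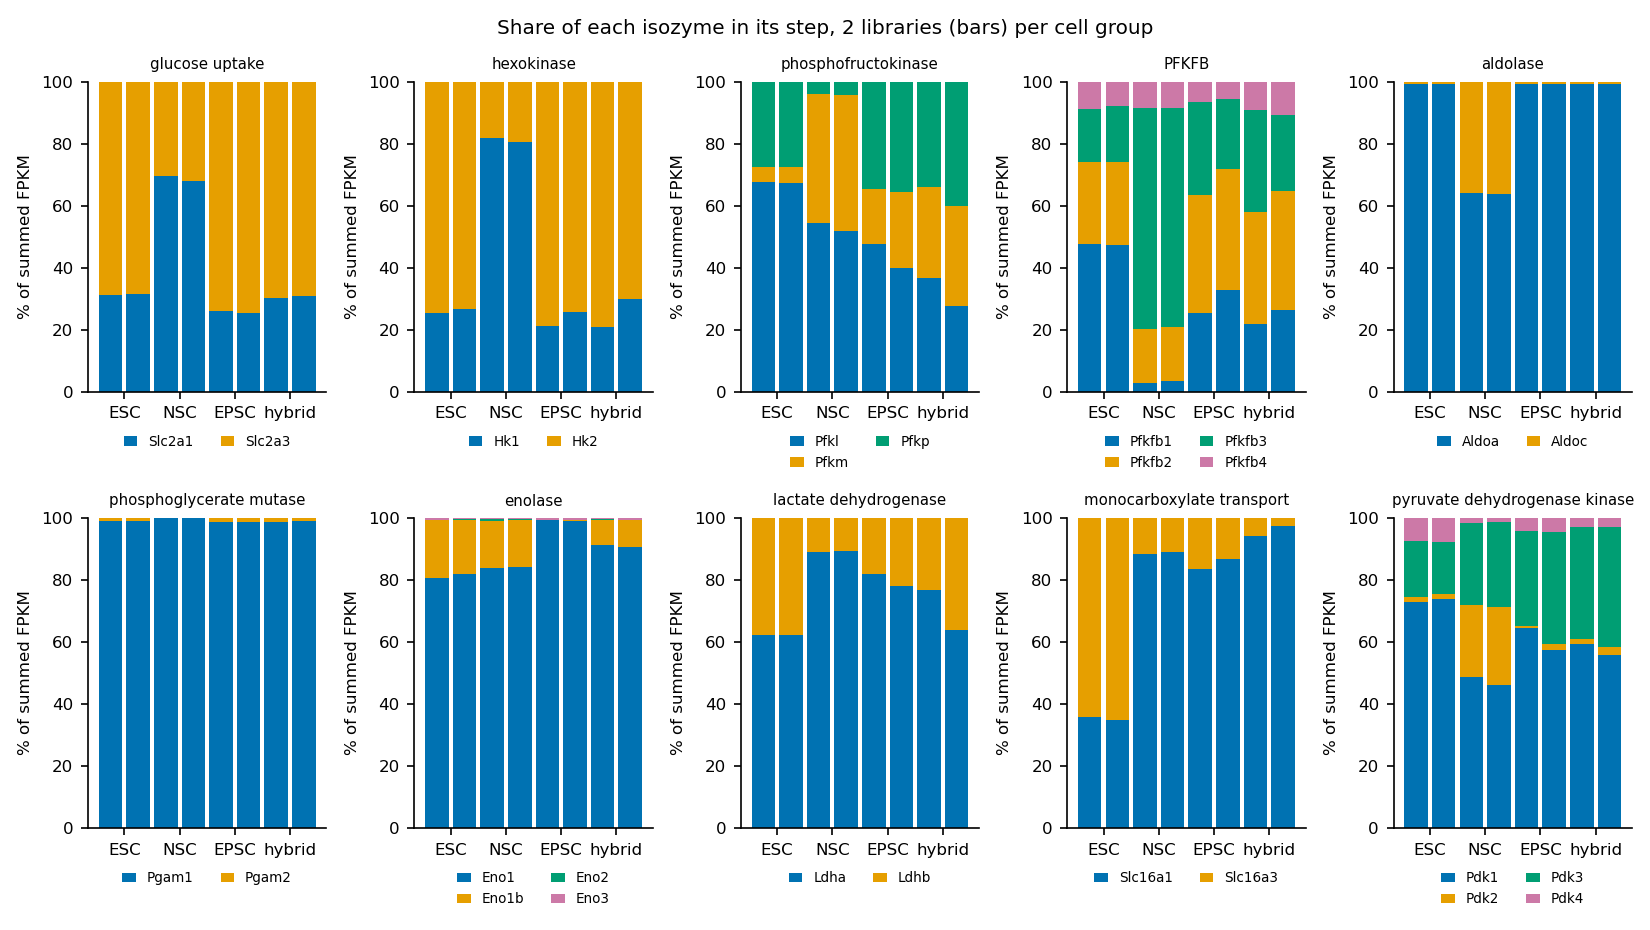
Share of each isozyme gene in the summed FPKM of its step, in percent, for 10 steps, with 1 bar per library and 2 bars per cell group. NSC bars differ from the rest at glucose uptake, hexokinase, PFKFB and aldolase, EPSC bars lack the Eno1b part (0.09%), and ESC bars are led by Slc16a3 (64.8%) at monocarboxylate transport.

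Over the 10 steps with isozymes, the leading gene differed between EPSCs and NSCs at 3 (glucose uptake, hexokinase and PFKFB) and between hybrid cells and NSCs at 4, with phosphofructokinase added. EPSCs and ESCs had another leader at 2 steps, PFKFB and lactate transport. Between hybrid cells and EPSCs it was 1 step, phosphofructokinase, and none without the second hybrid library.

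Among the kinases that gate the entry of pyruvate into the mitochondrion, Pdk2 had its highest levels in NSCs. Pdk1, a kinase induced in hypoxia, stood at 62.3 and 61.2 FPKM in ESCs, 44.7 and 33.3 in EPSCs, 35.7 and 28.5 in hybrid cells and 20.6 and 17.7 in NSCs, and led the step in all groups. Pdk2, the most widely expressed kinase, stood at 9.86 and 9.67 FPKM in NSCs and at 0.483 to 1.35 in the other 6 libraries. Its log2 difference from NSCs was −2.59 in EPSCs (SE 0.17, adjusted p = 2.56e-06) and −2.32 in hybrid cells (an 8.36-fold lower mean, SE 0.17, adjusted p = 4.87e-06). Pdk3 stood at 21.2 and 21.0 FPKM in EPSCs, 21.8 and 19.7 in hybrid cells, 15.3 and 13.95 in ESCs and 11.1 and 10.5 in NSCs. Pdk4, the kinase of fasting, stood at 6.43 and 6.48 FPKM in ESCs, 2.79 and 2.67 in EPSCs, 1.69 and 1.46 in hybrid cells and 0.657 and 0.469 in NSCs. It was lower in EPSCs than in ESCs by 1.00 (SE 0.09, adjusted p = 9.55e-05) and lower in hybrid cells than in EPSCs by 0.54 (SE 0.09, adjusted p = 0.00324), and no other kinase was called between hybrid cells and EPSCs, except Pdk1 and Pdk2 without the second EPSC library (adjusted p = 0.0433 and 0.0151).

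The E1 component of pyruvate dehydrogenase is built from the products of Pdha1 and Pdhb. Pdha1 stood at 120 and 117 FPKM in NSCs, 141 and 140 in ESCs, 171 and 168 in EPSCs, and 185 and 184 in hybrid cells. Hybrid and EPSC libraries did not overlap, but the difference missed the threshold (adjusted p = 0.0554) except with no filter (0.0402). The higher Pdha1 level in EPSCs than in NSCs turned to −0.10 after scaling to the same sum and to −0.03 with quantile normalization. Pdhb stood at 167 and 173 FPKM in ESCs, 168 and 159 in EPSCs, 120 and 128 in hybrid cells and 64.2 and 63.4 in NSCs. Hybrid cells were below EPSCs at Pdhb by 0.40 (SE 0.05, adjusted p = 0.00158), so the 2 subunit genes did not move together.

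Of the 7 pentose phosphate genes, 5 were higher in EPSCs than in ESCs, 1 was lower and 1 was not called, where 33.7% of genes were higher and 27.3% lower. Between hybrid cells and EPSCs, 1 was higher, 1 lower and 5 not called, where 22.5% of genes were higher and 21.9% lower. Pgd, the second NADPH-forming dehydrogenase of the oxidative arm, stood at 73.4 and 71.8 FPKM in NSCs, 89.4 and 88.2 in ESCs, 186 and 173 in EPSCs, and 216 and 212 in hybrid cells. All 4 groups were apart. Pgd was 2.02-fold higher in EPSCs than in ESCs (log2 difference 1.01, SE 0.05, adjusted p = 8.78e-06), 1.19-fold higher in hybrid cells than in EPSCs (0.25, SE 0.05, adjusted p = 0.00699, and 0.0541 when these groups were fitted alone) and 2.94-fold higher in hybrid cells than in NSCs (1.54, SE 0.05, adjusted p = 7.51e-08). G6pdx, which opens the oxidative arm, stood at 47.4 and 45.5 FPKM in NSCs, 43.4 and 42.1 in EPSCs, 41.6 and 36.6 in hybrid cells and 31.4 and 32.5 in ESCs. Pgls, the lactonase between them, stood at 137 and 129 FPKM in NSCs, 106 and 98.8 in ESCs, 44.3 and 48.7 in EPSCs and 40.6 and 48.4 in hybrid cells. Pgls was lower in EPSCs than in ESCs (log2 difference −1.12, SE 0.09, adjusted p = 6.39e-05) and overlapped between EPSCs and hybrid cells. The 3 enzymes of the oxidative arm therefore had 3 different orders across the groups.

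In the non-oxidative arm, Tkt encodes transketolase and stood at 213 and 219 FPKM in EPSCs, 184 and 180 in NSCs, 157 and 165 in hybrid cells and 149 and 150 in ESCs. It was lower in hybrid cells than in EPSCs by 0.42 (SE 0.05, adjusted p = 0.000823), and its level in EPSCs, higher than in NSCs by 0.24, turned to −0.37 after scaling to the same sum and also with quantile normalization. Taldo1, transaldolase, stood at 245 and 221 FPKM in EPSCs, 224 and 209 in hybrid cells, 155 and 159 in ESCs and 118 and 130 in NSCs. Rpe, the ribulose phosphate epimerase, stood at 37.3 and 37.5 FPKM in EPSCs, 31.0 and 38.1 in hybrid cells, 19.9 and 19.9 in ESCs and 17.1 and 19.1 in NSCs. Both overlapped between hybrid cells and EPSCs and were higher in EPSCs than in ESCs, by 0.57 (adjusted p = 0.000443) and 0.88 (adjusted p = 0.000255). Rpia, the ribose phosphate isomerase, was low throughout, from 5.27 FPKM in a hybrid library to 8.20 in an NSC library, and its lower level in EPSCs than in NSCs was lost without either NSC library or the first EPSC library and turned to 0.04 with quantile normalization.

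Pgd and Tpi1, a pair chosen after its values were seen, changed order within the libraries. There were 0.151 and 0.162 Pgd transcripts per Tpi1 transcript in ESCs, 0.173 and 0.189 in NSCs, 0.716 and 0.773 in EPSCs and 1.49 and 1.87 in hybrid cells. The hybrid libraries were the only ones with more Pgd than Tpi1. The pair describes these 2 genes and not their pathways.

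The orders counted here, and the counts against both parents below, were not among the planned results. Taking the levels in order, 16 of 41 members had both ESC libraries above both EPSC libraries and these above both hybrid libraries, an order held by 11.1% of genes tested. These were Slc2a1, Slc2a3, Gpi1, Pfkl, Pfkp, Pfkfb1, Aldoa, Aldoc, Tpi1, Gapdh, Pgk1, Ldha, Ldhb, Slc16a3, Pdk4 and Rpia. The reverse order held for 2 members, Pdha1 and Pgd, and for 14.7% of genes. In 17 members ESC libraries were the highest of all 8, against 16.6% of genes. NSC libraries were above the other 6 in 10 members and in 37% of genes, and below them in 22 members and in 39.2% of genes. The orders in this paragraph were counted on FPKM as deposited and not repeated with a common sum. Those that involve NSC libraries therefore depend on the lower FPKM totals of NSCs.

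Compared with the cells that were fused, 11 of 41 members had both hybrid libraries below both EPSC and both NSC libraries, where 16.2% of genes did. These were Gpi1, Pfkl, Pfkm, Aldoc, Tpi1, Pgk1, Ldha, Slc16a3, G6pdx, Tkt and Rpia. With every library scaled to the same sum there were 13, against 22.4% of genes. Of the 11, G6pdx (adjusted p = 0.176) and Rpia were not called by limma between hybrid cells and EPSCs, and the Pgk1 call was lost in several fits. Hybrid libraries were above both parents for 3 members (Pgam1, Pdha1 and Pgd), against 18.7% of genes. Of these, limma called only Pgd higher than in EPSCs (adjusted p = 0.0783 for Pgam1 and 0.0554 for Pdha1).

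**Figure D4:**
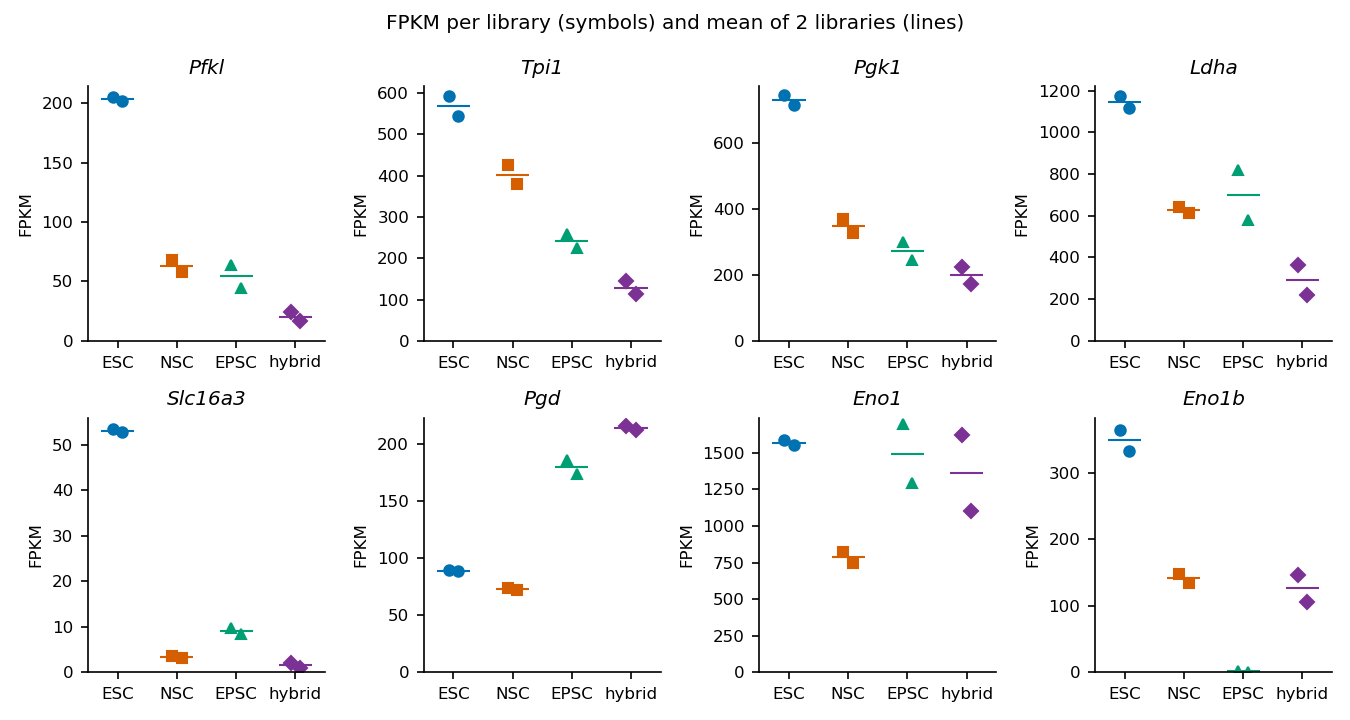
FPKM of 8 members in each library (symbols) with the mean of the 2 libraries of each cell group (lines), each panel on its own linear axis from 0. Hybrid libraries lie below all others for Pfkl, Tpi1, Pgk1, Ldha and Slc16a3, above all others for Pgd (216 and 212), and near NSCs for Eno1b, which is near 0 in EPSCs.

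Promoters of 4 of the 11 genes with hybrid libraries below both parents are shown, 3 with and 1 without the letters ACGTG, searched on both strands. These letters are a form of the core of the hypoxia response element. It is read by hypoxia-inducible factors, textbook activators of glycolytic genes. The form GCGTG was not searched, and the Pfkl bases printed below hold it. Genes without ACGTG may therefore still hold the element. ACGTG overlaps the E-box CACGTG, known to be read by MYC, which of the promoters shown only that of Ldha held. In the 250 bases before the start site of RefSeq transcripts (assembly GRCm38.p6), 12 of 39 members with a window held ACGTG, or 30.8%, against 16.5% of windows of 27025 genes. Of the 11 genes, 4 held them (Pfkm, Pgk1, Ldha and Slc16a3) and 7 did not (Gpi1, Pfkl, Aldoc, Tpi1, G6pdx, Tkt and Rpia). Slc2a3 and Eno1b had no window. Some genes had several windows listed, such as 2 for Ldha and 4 for Pfkm, and 1 window per gene was counted. The 160 bases before the start site are printed 5′ to 3′ on the strand of the gene, with ACGTG or its reverse complement in capitals.
Ldha (chr7:46845644-46845803, plus strand): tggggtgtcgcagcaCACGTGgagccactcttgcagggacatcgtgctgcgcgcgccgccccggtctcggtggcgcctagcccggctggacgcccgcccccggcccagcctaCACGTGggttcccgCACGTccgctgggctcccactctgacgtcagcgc
Pgk1 (chrX:106186940-106187099, plus strand): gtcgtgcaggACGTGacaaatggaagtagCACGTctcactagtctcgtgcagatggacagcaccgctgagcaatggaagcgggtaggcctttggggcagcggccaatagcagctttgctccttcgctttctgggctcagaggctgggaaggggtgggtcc
Slc16a3 (chr11:120948907-120949066, plus strand): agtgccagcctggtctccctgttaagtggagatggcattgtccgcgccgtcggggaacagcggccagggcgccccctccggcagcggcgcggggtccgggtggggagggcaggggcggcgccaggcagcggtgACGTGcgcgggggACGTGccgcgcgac
Pfkl (chr10:78009808-78009967, minus strand): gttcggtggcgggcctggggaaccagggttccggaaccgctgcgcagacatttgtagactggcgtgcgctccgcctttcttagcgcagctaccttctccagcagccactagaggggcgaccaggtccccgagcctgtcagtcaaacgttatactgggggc

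Ldha held the letters at 5 positions, since each of its CACGTG runs counts on both strands, and Pgk1 and Slc16a3 held them at 2 positions each, the latter at −27 and −14 from the start. Pfkl held no ACGTG in its window. A match is a run of letters and not a measured binding site, and the 4 genes were picked for display after their values were seen.

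For the members past the study's rule between EPSCs and NSCs, the hybrid level can be placed on a log2 scale where NSCs are 0 and EPSCs are 1. The median over these 11 members was 0.886, and over all 3809 genes past the same rule it was 0.966. Aldoc (1.11) lay beyond the EPSC level and Pfkfb3 (0.963) and Slc2a1 (0.920) lay close to it. Pfkp (0.699) and Eno2 (0.606) were in between, and Eno1b (0.0301) was near the NSC level in the values as deposited. The log2 difference of Eno1b in hybrid cells from NSCs was −0.18 by limma and was not called (adjusted p = 0.276). It was called at −0.80 with a common sum (adjusted p = 0.000722) and at −0.69 with quantile normalization (adjusted p = 0.00177). Without the first hybrid library the difference was −0.41.

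From a list of 34 other genes of these pathways, all in the table, 19 were high enough to test. Between hybrid cells and EPSCs, 2 were higher and 4 lower, or 31.6% called, against 44.4% of all genes tested. Between hybrid cells and NSCs, 9 were higher and 5 lower, between EPSCs and NSCs 6 and 6, and between EPSCs and ESCs 8 and 6. These came to 73.7%, 63.2% and 73.7% called, against 86.5%, 86.2% and 61% of all genes tested. The largest differences above NSCs in hybrid cells were those of Emb, Tigar and Fbp2. Emb, a partner protein of lactate carriers, stood at 89.4 and 67.8 FPKM in EPSCs, 38.5 and 37.1 in ESCs, 32.9 and 23.8 in hybrid cells and 1.63 and 1.30 in NSCs, and was lower in hybrid cells than in EPSCs by 1.44 (SE 0.17, adjusted p = 0.000931). Tigar, which breaks down fructose 2,6-bisphosphate, stood at 35.7 and 36.7 FPKM in ESCs, 35.3 and 36.7 in EPSCs, 22.8 and 24.7 in hybrid cells and 6.30 and 6.73 in NSCs. Fbp2, a gluconeogenic phosphatase, reached only 1.46 FPKM. The largest differences below NSCs were those of Pdpr, a regulator of pyruvate dehydrogenase phosphatase (12.04 and 12.01 FPKM in NSCs, 4.62 and 3.53 in hybrid cells), of Mpc1, a subunit of the mitochondrial pyruvate carrier (34.4 and 33.0 against 15.5 and 15.0), and of Bpgm, the bisphosphoglycerate mutase (16.6 and 16.1 against 7.96 and 8.21).

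Of 13 regulators of glycolytic genes, 2 were higher and 6 lower in hybrid cells than in EPSCs, and 2 higher and 6 lower in EPSCs than in ESCs. Against NSCs, 7 were higher and 6 lower in hybrid cells, and 7 higher and 5 lower in EPSCs. The shares called were 61.5% in each of the first pair of comparisons, where 44.4% and 61% of all genes were called, and 100% and 92.3% against NSCs, where 86.5% and 86.2% were. Hif1a, the hypoxia-inducible factor, stood at 55.5 and 58.3 FPKM in NSCs and 26.9 to 30.6 in the other 6 libraries. Egln1, the oxygen sensor that marks it for destruction, stood at 48.7 and 46.3 FPKM in NSCs, 16.9 and 17.2 in ESCs, 4.92 and 5.79 in EPSCs and 3.93 and 4.06 in hybrid cells. Myc stood at 34.5 and 38.2 FPKM in NSCs, 21.5 and 23.6 in ESCs, 6.47 and 6.78 in EPSCs and 12.5 and 8.63 in hybrid cells, and was higher in hybrid cells than in EPSCs by 0.58 (SE 0.15, adjusted p = 0.0177). Txnip, which restrains glucose uptake, stood at 171 and 113 FPKM in EPSCs, 100.2 and 100.8 in ESCs, 38.6 and 34.8 in hybrid cells and 5.80 and 4.19 in NSCs. It was lower in hybrid cells than in EPSCs by 1.90 (SE 0.19, adjusted p = 0.000518). Related genes had another order: Mycn stood at 1.18 and 1.12 FPKM in NSCs and 27.8 to 67.1 in the other 6 libraries, and Epas1, a second hypoxia-inducible factor, at 5.54 and 5.71 in NSCs and 9.95 to 15.1 elsewhere. These 6 were named after their values were seen.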

How the data were processed

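Poly-A RNA of 8 libraries was prepared with a stranded kit. The authors mapped reads with STAR 2.7.9a to mm10 and deposited FPKM values made with Cufflinks and Cuffnorm 2.2.1. The annotation, strand setting and library scaling were not given in the sources used here. The table has 24354 genes, of which 5210 are at 0 throughout.

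Values were used as deposited. log2(FPKM + 1) was fitted with limma 3.58.1 (R 4.3.3, trend) over 4 groups, on the 13239 genes with a group mean of at least 1 FPKM, with 4 residual degrees of freedom and Benjamini-Hochberg adjustment over all of them. Fold changes on this scale understate low genes, and SE and adjusted p are from this fit. Depth was inferred from the smallest FPKM steps, assuming 200-base fragments, so it is approximate. With 2 libraries per line, p-values measure the spread between libraries, which may be technical.

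The members and gene lists were chosen with earlier results of these data known. Every member is named. Full statistics go to members past limma and the study's rule, or whose leading isozyme changed, and of other pathway genes the 3 largest called differences in each direction between hybrid cells and NSCs are named. Isozyme shares are percentages of summed FPKM in a step, compared by an exact permutation test. Alternatives were another added constant, other filters and scalings, fits of pairs of groups, a replicate block and leaving out each library. Transcript runs came from GENCODE M21 and promoter windows from RefSeq.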

Additional observations from a re-analysis of the deposited data

How the results depend on the processing

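Of 130 member differences called by limma, 22, 39, 37 and 32 were in hybrid vs EPSC, hybrid vs NSC, EPSC vs NSC and EPSC vs ESC. Under every alternative that tested them, 17, 27, 27 and 28 of these stayed called in the same direction. Reversals came only from scaling in the comparisons with NSCs: 7 with a common sum and 11 with quantile normalization. In hybrid vs NSC, a common sum gave −0.0005 for Aldoa, −0.0021 for Pgam1, −0.0004 for Ldhb and −0.16 for Slc16a1, and quantile normalization gave −0.42 for Aldoa, −0.39 for Gapdh, −0.61 for Eno1 and −0.57 for Pkm. In EPSC vs NSC, a common sum gave −0.18 for Pgam1, −0.10 for Pdha1 and −0.37 for Tkt, and quantile normalization gave −0.0235 for Aldoa, −0.12 for Pgam1, −0.40 for Eno1, −0.47 for Pkm, −0.0278 for Pdha1, −0.37 for Tkt and 0.0377 for Rpia. A common sum shifts NSC levels against all others by construction, and the cause of the changes with quantile normalization was not tested. Members higher in hybrid vs EPSC numbered 2 when these groups were fitted alone, and members higher in hybrid vs NSC numbered 14 with a common sum. With both limits of the study's rule at 2, its lower members numbered 3 in hybrid vs EPSC, 11 in hybrid vs NSC, 8 in EPSC vs NSC and 9 in EPSC vs ESC, and its higher members 16 in EPSC vs NSC and 1 in EPSC vs ESC. With a common sum the rule took 11 lower in hybrid vs NSC and 9 lower in EPSC vs NSC.

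Leaving out 1 library at a time, where a lone library was assumed to vary like the others, the lower members by the rule ranged from 1 to 3 in hybrid vs EPSC (3 without the first hybrid library, 2 without the second EPSC library) and from 3 to 6 in hybrid vs NSC (3 without the first NSC library). The number of steps whose leading isozyme differed between hybrid cells and EPSCs ranged from 0 to 1, with 0 without the second hybrid library, and from 3 to 4 between hybrid cells and NSCs. The median position ranged from 0.855 to 0.886, and an added constant of 0.1 gave 0.853. Treating the library number as a replicate block kept all 130 calls and added Pgam1 in hybrid vs EPSC (adjusted p = 0.0251) and Pfkfb3 in EPSC vs ESC (0.0314), with 5 higher and 18 lower in hybrid vs EPSC, 22 and 17 in hybrid vs NSC, 24 and 13 in EPSC vs NSC and 12 and 21 in EPSC vs ESC. The numbers are not known to pair libraries: deviations of same-numbered libraries correlated over 13239 genes at 0.28, −0.02, 0.07 and 0.06 in the same order. Summing Eno1 and Eno1b, and scaling in the count of members below both parents, were chosen after seeing the data. Depth limits Pgam2 in NSCs, where 3 fragments would be 0.164 and 0.163 FPKM.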
